A study of Mus musculus with 8 samples.

Results

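The 10 genes described here code for receptors that T cells use to restrain or to support their own activation, plus 1 nuclear factor that goes with them. They were taken by symbol from the 32285 genes of the count tables, and were chosen with earlier results of these data known. Pdcd1 codes for PD-1, Ctla4 for CTLA-4, Lag3 for LAG-3, Havcr2 for TIM-3 and Tigit for TIGIT, which are inhibitory receptors. Icos, Tnfrsf4 (OX40), Tnfrsf9 (4-1BB) and Tnfrsf18 (GITR) code for costimulatory receptors, and Tox for a transcription factor of chronically stimulated T cells. All 10 symbols were found in every table.

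Single CD45+ cells, the leukocytes of a tumor, came from 8 mice on day 18, with 1 mammary tumor per mouse. In 2 mice (replicates 1 and 3) the tumor was E0771, a triple-negative breast cancer line of C57BL/6 mice that the labels call naive. In 3 mice it was E0771-Res1 and in 3 mice E0771-Res2, each of which is 1 line set up from an E0771 tumor that relapsed once treatment with paclitaxel and anti–PD-1 antibody had ended. The mice were female, no treatment of the sequenced mice is named, and a further E0771 mouse was not analysed here. The question put to the lines was how the leukocytes of resistant tumors differ from those of the parental tumor, and the question put to the cell classes was which lymphocytes carry the receptors.

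After a T cell meets its antigen, signals through CD28 family members and TNF receptor family members set how far it divides and how long it survives. PD-1 and CTLA-4 are induced by activation and curb it, and antibodies against either are used in cancer therapy. Cells that stay stimulated for long keep PD-1, LAG-3 and TIM-3 together with TOX, the state called exhaustion. Regulatory T cells, which are defined by the factor Foxp3 and hold other T cells in check, are known to carry much CTLA-4, ICOS, OX40 and GITR at rest. NK cells are cytotoxic lymphocytes without a T cell receptor.

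Several of the genes are neighbors (GENCODE M21, GRCm38). Ctla4 (chr1:60887000-60915832, plus strand) lies 62094 bases before Icos (chr1:60977927-61000320, plus strand). Tnfrsf4 (chr4:156013843-156016612, plus strand) lies 9551 bases before Tnfrsf18 (chr4:156026164-156028895, plus strand), and Tnfrsf9 (chr4:150914562-150946102, plus strand) and Tox (chr4:6686353-6991557, minus strand) are on the same chromosome. Pdcd1 (chr1:94038305-94052553, minus strand), Lag3 (chr6:124904361-124911705, minus strand), Havcr2 (chr11:46454935-46481255, plus strand) and Tigit (chr16:43648867-43664146, minus strand) have no other member next to them. All 10 are annotated as protein coding.

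RefSeq (GRCm38.p6) gave promoter sequences of 300 bases, from 250 before the start site to 50 after it, for 7 of the 10 genes, and none for Lag3, Tox and Icos. Shown are Ctla4, Tnfrsf4 and Tnfrsf18, which were highest in Foxp3+ T cells, then Pdcd1, which was highest in CD8 T cells, and the promoter of Tnfrsf9 that starts further downstream. Capitals mark matches, on either strand, to GGAAA (core of the NFAT motif), TGANTCA (AP-1), the NF-kB consensus and TATAAA, a core promoter box.
Ctla4, chr1:60908775-60909074, plus strand: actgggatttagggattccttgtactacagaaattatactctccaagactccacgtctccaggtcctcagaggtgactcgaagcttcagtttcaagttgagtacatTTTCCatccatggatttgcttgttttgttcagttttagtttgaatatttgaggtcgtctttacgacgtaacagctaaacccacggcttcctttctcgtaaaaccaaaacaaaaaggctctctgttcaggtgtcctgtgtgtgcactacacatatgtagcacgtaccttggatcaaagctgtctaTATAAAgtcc
Tnfrsf4, chr4:156013445-156013744, plus strand: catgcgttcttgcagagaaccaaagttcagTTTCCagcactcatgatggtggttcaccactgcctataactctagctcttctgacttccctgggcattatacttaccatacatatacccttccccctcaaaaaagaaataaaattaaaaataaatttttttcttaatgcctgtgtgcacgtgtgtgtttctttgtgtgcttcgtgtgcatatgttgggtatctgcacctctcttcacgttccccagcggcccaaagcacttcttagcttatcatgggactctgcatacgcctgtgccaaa
Tnfrsf18, chr4:156026072-156026371, plus strand: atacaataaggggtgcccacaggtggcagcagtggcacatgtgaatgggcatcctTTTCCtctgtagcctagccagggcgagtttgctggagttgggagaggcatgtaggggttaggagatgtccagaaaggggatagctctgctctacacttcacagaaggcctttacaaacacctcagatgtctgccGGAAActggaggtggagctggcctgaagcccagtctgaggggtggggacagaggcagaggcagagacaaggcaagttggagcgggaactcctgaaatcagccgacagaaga
Pdcd1, chr1:94052504-94052803, minus strand: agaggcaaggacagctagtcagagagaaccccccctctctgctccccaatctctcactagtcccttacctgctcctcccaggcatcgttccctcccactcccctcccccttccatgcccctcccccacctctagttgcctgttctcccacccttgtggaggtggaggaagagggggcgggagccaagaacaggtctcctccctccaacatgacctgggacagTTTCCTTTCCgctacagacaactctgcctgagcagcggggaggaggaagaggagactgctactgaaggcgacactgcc
Tnfrsf9, chr4:150927749-150928048, plus strand: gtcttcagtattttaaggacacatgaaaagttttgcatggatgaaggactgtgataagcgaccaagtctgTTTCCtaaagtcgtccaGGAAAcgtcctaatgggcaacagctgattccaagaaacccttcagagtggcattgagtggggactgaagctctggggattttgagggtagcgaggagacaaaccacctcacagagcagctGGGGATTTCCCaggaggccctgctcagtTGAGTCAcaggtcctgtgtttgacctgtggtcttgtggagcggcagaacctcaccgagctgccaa
All 5 sequences held GGAAA, as did 61.3% of the 32851 promoters in the table. The Tnfrsf9 promoter alone of the 5 held the AP-1 motif (bases 236 to 242, present in 7.81% of all promoters) and the NF-kB consensus (bases 208 to 218, present in 8.46%), the latter overlapping a GGAAA at bases 213 to 217. Among the entries not shown, Havcr2 held the AP-1 motif too, at bases 51 to 57, and no GGAAA. The other Tnfrsf9 promoter and that of Tigit held GGAAA, without AP-1 or NF-kB matches. TATAAA stood at bases 291 to 296 of the Ctla4 promoter, which lie after the start site and not before it, and in 13.6% of all promoters. The forkhead motif TGTTTAC, found in 3.65% of promoters, was in none of the 8 entries of the 7 genes.

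Of 11430 deposited cells, 10605 had 500 to 6000 detected genes and under 10% mitochondrial counts and were kept, between 604 and 2020 per mouse. The deposited cells held 5036667 to 18894504 unique molecular identifiers (UMIs, counted RNA molecules) per mouse, mice had 0 cell barcodes in common, and replicates are separate mice. The paper states that cells were tagged with multiplexing oligos and pooled before libraries were made. The absence of shared barcodes therefore does not show separate libraries. Lymphocytes were few, so cells were assigned by gates on marker genes that include none of the 10 genes. A T cell needed 2 UMIs of Cd3d, Cd3e and Cd3g, and was called Foxp3+ (Foxp3 detected, no Cd8), CD8 (Cd8a or Cd8b1 detected, no Foxp3) or other (neither). NK cells had Ncr1 or Klrb1c and at most 1 Cd3 UMI. The gates held 231 CD8 T cells (11 to 57 per mouse), 185 Foxp3+ T cells (6 to 46), 202 other T cells (8 to 39) and 226 NK cells (16 to 50). A Foxp3+ cell whose Foxp3 RNA gave no UMI is counted among the other T cells, as is a CD8 T cell without a Cd8a or Cd8b1 UMI.

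Genes outside the gates went with the names in part. Levels per gate are counts summed over the cells of 1 mouse and expressed relative to the total of the sum in the usual unit CPM, with totals scaled by TMM among the mice of that gate, for mice with at least 10 cells in the gate, which left 8 mice for CD8 T, 6 for Foxp3+ T, 7 for other T and 8 for NK cells. Ikzf2 (Helios, a factor of regulatory T cells) had a median of 937 CPM in Foxp3+ T cells against 296 in CD8 T cells, and Gzma (granzyme A) had 9380 CPM in NK cells against 98.9 in CD8 T cells. Cd5, a T cell surface gene, had a median of 0 CPM in NK cells, and Themis was at 0 in all 8 NK sums. Lck and Cd2, also checked as T cell genes, were present in NK cells. Their NK medians were 206 and 244 CPM, against 267 and 385 in CD8 T cells. Themis had a median of 8.22 CPM in Foxp3+ T cells against 101 in CD8 T cells. Klre1, an NK receptor gene, was present in the CD8 gate at a median of 369 CPM. Macrophage RNA reached every gate: the summed level of Lyz2, C1qa, C1qb and Apoe was 1058 to 9233 CPM in CD8 T cells, 4329 to 9394 in Foxp3+ T cells, 3661 to 12236 in other T cells and 1644 to 7227 in NK cells, against 17411 to 23306 in the myeloid gate (6909 cells with macrophage or monocyte markers and no Cd3). Fits were therefore repeated on the 518 of 844 gated cells with at most 3 myeloid marker UMIs.

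Nearly all of the 10 genes were lymphocyte genes in these tumors, with Havcr2 as the exception. T and NK cells made up 8.71% of the kept cells and held 84.8% of the Tigit UMIs (89 of 105), 81.8% of Tox (955 of 1168), 74.8% of Pdcd1 (691 of 924) and 73.2% of Icos (1375 of 1879). They held 69.0% of Tnfrsf18, 68.6% of Ctla4, 68.6% of Tnfrsf9, 68.2% of Lag3 and 64.5% of Tnfrsf4. Havcr2, whose product also sits on macrophages and dendritic cells, had 10.9% of its 6053 UMIs in T and NK cells and 67.4% in the myeloid gate, which held 65.1% of the cells.

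**Figure D1:**
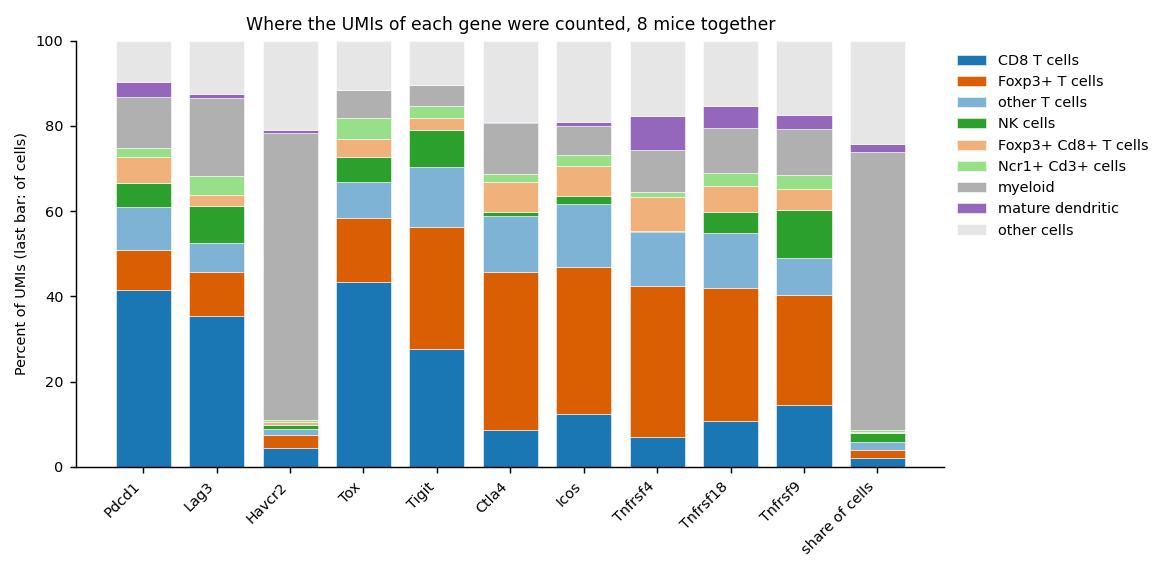
Stacked bars give the percent of each gene's UMIs, all 8 mice together, that fell in each gate, and the last bar gives the percent of cells. CD8 T cells (2.18% of cells) held 43.5% of Tox UMIs and Foxp3+ T cells (1.74% of cells) held 37.1% of Ctla4 UMIs, whereas the Havcr2 bar is mostly myeloid.

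Within the lymphocytes, the genes fell to different gates. CD8 T cells, 2.18% of all cells, held 43.5% of the Tox UMIs, 41.5% of Pdcd1 and 35.3% of Lag3. Foxp3+ T cells, 1.74% of all cells, held 37.1% of the Ctla4 UMIs, 35.4% of Tnfrsf4, 34.4% of Icos, 31.2% of Tnfrsf18 and 25.8% of Tnfrsf9. Mature dendritic cells (Ccr7 and Fscn1 detected, no Cd3, 2.01% of cells) held 8.05% of the Tnfrsf4 UMIs and 5.32% of those of Tnfrsf18. Their Tnfrsf4 level was 364 ± 120 CPM (SD, n = 6 mice) against 13.9 ± 2.2 in the myeloid gate (SD, n = 8 mice).

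Tnfrsf4 codes for OX40, a survival receptor of activated and regulatory T cells, and separated the gates. In Foxp3+ T cells it stood at 1635 CPM in the E0771 mouse, 1853 and 1771 in 2 E0771-Res1 mice, and 1498, 1830.0 and 1721 in the 3 E0771-Res2 mice. In CD8 T cells it ran from 90.5 to 379 CPM with a median of 195 over 8 mice, and in other T cells from 402 to 1045 with a median of 801 over 7 mice. In NK cells it ran from 0 to 25.3 CPM. The 6 Foxp3+ sums lay above every sum of the other gates, and the NK sums lay below every T cell sum.

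Ctla4, the gene of the receptor that competes with CD28 for its ligands, followed the same order. Foxp3+ T cells had 1108 CPM in the E0771 mouse, 935 and 1643 in E0771-Res1, and 779, 1036 and 1165 in the E0771-Res2. CD8 T cells had 101 to 213 CPM (median 164), other T cells 286 to 545 (median 422) and NK cells 0 to 59.99 (median 14.6). No 2 of the 4 gates overlapped.

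Tnfrsf18 and Icos showed the order again at other levels. Tnfrsf18 (GITR) had 1176 to 1570.3 CPM in Foxp3+ T cells (median 1330.3), 466 to 749 in other T cells (median 709.6), 208 to 377 in CD8 T cells (median 296) and 114 to 327 in NK cells (median 163). Only CD8 T and NK cells overlapped. Icos, the inducible costimulator, had 322 to 639.9 CPM in Foxp3+ T cells (median 497), 185 to 319 in other T cells (median 268), 60.02 to 161 in CD8 T cells (median 122) and 6.77 to 36.9 in NK cells (median 18.8), and no neighbors in that order overlapped. The CPM of different gates were scaled separately, so a narrow gap, such as 319 against 322 for Icos, can depend on the scaling. For these and the other members, overlap of gates is given as a description, and the share of all genes without overlap is not given.

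Tnfrsf9 codes for 4-1BB, which is induced after antigen contact on T cells and after cytokine on NK cells, and it varied widely between mice. Foxp3+ T cells had 344 CPM in the E0771 mouse, 269 and 237 in E0771-Res1, and 136, 232 and 473 in the E0771-Res2. CD8 T cells had 45.8 to 203 (median 78.6), other T cells 52.9 to 367 (median 104) and NK cells 42.2 to 150.3 (median 96.7). The CD8 T, other T and NK gates overlapped throughout, and the lowest Foxp3+ sum lay within the range of each.

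**Figure D2:**
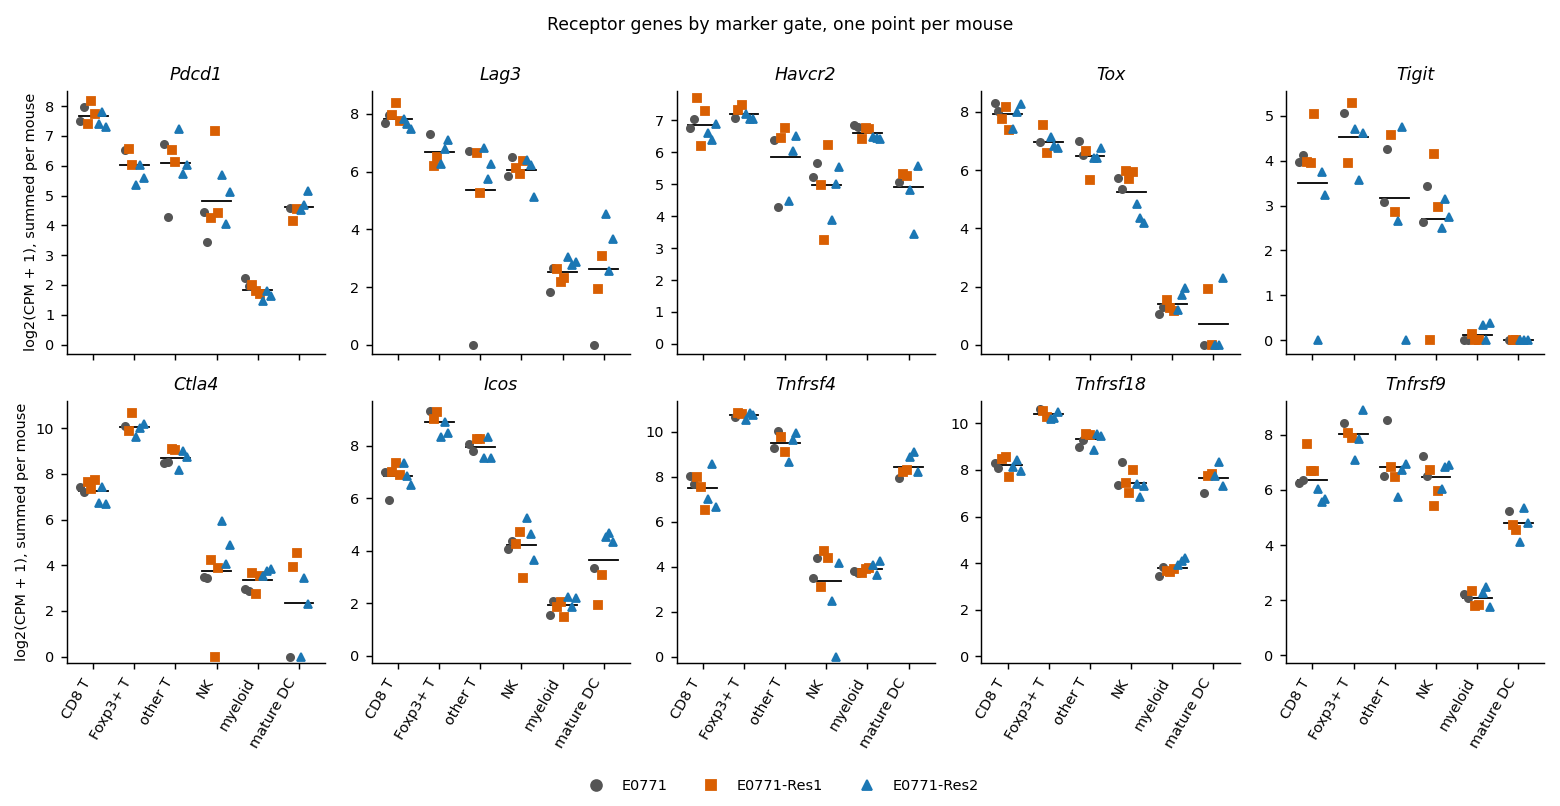
Each point is 1 mouse, with the log2 of CPM + 1 of the summed counts on the vertical axis, the gates on the horizontal axis, the tumor line as symbol and the mean of the points as a bar. In the lower row Foxp3+ T cells stand highest for all 5 genes, and in the upper row Pdcd1, Lag3 and Tox stand highest in CD8 T cells while for Havcr2 the myeloid gate, at 83.4 to 115 CPM, lies within the range of CD8 T cells.

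Against CD8 T cells of the same 6 mice, all 5 of these genes were higher in Foxp3+ T cells (edgeR quasi-likelihood test with mouse as a block, p adjusted over all genes tested). The log2 difference was 3.15 for Tnfrsf4 (SE 0.21, adjusted p = 1.1e-07), 2.78 for Ctla4 (SE 0.15, adjusted p = 1.1e-08) and 2.23 for Tnfrsf18 (SE 0.13, adjusted p = 1.6e-08). It was 2.03 for Icos (SE 0.17, adjusted p = 8.0e-07) and 1.67 for Tnfrsf9 (SE 0.29, adjusted p = 0.0012). Each was positive in 6 of 6 mice. Of 9 members that passed the filter on low counts, 8 were called in this comparison, 5 higher and 3 lower, where 12.3% of the 4788 genes tested were called, 6.60% higher and 5.74% lower.

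The same 5 genes were higher in Foxp3+ T cells than in other T cells. The log2 difference was 1.51 for Tnfrsf9 (SE 0.18, adjusted p = 9.9e-05), 1.31 for Tnfrsf4 (SE 0.14, adjusted p = 1.5e-05) and 1.31 for Ctla4 (SE 0.14, adjusted p = 2.1e-05). It was 1.05 for Tnfrsf18 (SE 0.13, adjusted p = 0.00012) and 0.88 for Icos (SE 0.14, adjusted p = 0.00096), all by edgeR and positive in 6 of 6 mice. With at most 3 myeloid marker UMIs per cell, a filter chosen after seeing the data, Icos was 0.48 higher and no longer called (edgeR adjusted p = 0.23). Havcr2 was the sixth member called, so 6 of 9 were higher and none lower, where 4.38% of 4474 genes were called, 2.30% higher and 2.08% lower.

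Other T cells stood between the Foxp3+ and the CD8 gate for 4 of the 5. They can hold Foxp3+ and CD8 T cells without a marker UMI, and the part of such cells was not tested. CD8 T cells were lower than other T cells of the same 7 mice by edgeR in Tnfrsf4 (log2 difference -1.95, SE 0.20, adjusted p = 2.8e-06), Ctla4 (-1.48, SE 0.14, adjusted p = 1.0e-06), Icos (-1.18, SE 0.18, adjusted p = 0.00018) and Tnfrsf18 (-1.18, SE 0.14, adjusted p = 1.4e-05), each negative in 7 of 7 mice. Tnfrsf9 had a difference of -0.43 (SE 0.30, edgeR adjusted p = 0.36), negative in 4 of 7 mice. Of 9 members tested here, 8 were called, 4 higher and 4 lower, where 16.2% of 4783 genes were called, 8.26% higher and 7.97% lower.

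The inhibitory receptors Pdcd1 and Lag3 and the factor Tox had their highest levels in CD8 T cells instead. For Pdcd1, CD8 T cells had 179.8 and 251 CPM in E0771, 168, 289.8 and 213 in E0771-Res1, and 169, 221 and 156 in the E0771-Res2. Foxp3+ T cells had 40.2 to 93.2 CPM (median 64.4), other T cells 18.3 to 148 (median 69.0) and NK cells 9.90 to 143 (median 20.5). Every CD8 sum lay above every sum of the other gates, and the 3 other gates overlapped.

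Lag3, whose product binds MHC class II, had 207 and 246 CPM in CD8 T cells of E0771, 249.6, 333 and 213 in E0771-Res1, and 225, 199.8 and 177 in the E0771-Res2. It had 71.7 to 156 CPM in Foxp3+ T cells (median 98.7), 0 to 111 in other T cells (median 76.7) and 34.1 to 89.1 in NK cells (median 71.6). CD8 T cells again stood apart, and the other gates overlapped.

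Tox had 318 and 262 CPM in CD8 T cells of E0771, 214, 289.8 and 165 in E0771-Res1, and 169, 254 and 308 in the E0771-Res2. It had 95.9 to 186 CPM in Foxp3+ T cells (median 119), 50.2 to 127 in other T cells (median 91.6) and 17.0 to 61.1 in NK cells (median 45.1). Here the lowest CD8 mice reached into the range of the Foxp3+ gate.

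Foxp3+ T cells were lower than CD8 T cells by edgeR in Pdcd1 (log2 difference -1.41, SE 0.20, adjusted p = 0.00021), Lag3 (-1.02, SE 0.21, adjusted p = 0.0040) and Tox (-0.86, SE 0.19, adjusted p = 0.0069), each negative in 6 of 6 mice. Thinning all cells to a fixed depth left Tox at -0.49, no longer called (edgeR adjusted p = 0.28). CD8 T cells were higher than other T cells by edgeR in Lag3 (1.53, SE 0.24, adjusted p = 0.00022), Tox (1.34, SE 0.17, adjusted p = 2.0e-05) and Pdcd1 (1.19, SE 0.23, adjusted p = 0.0015), each positive in 7 of 7 mice. With at most 3 myeloid marker UMIs the Pdcd1 difference was 1.34 with an edgeR adjusted p of 0.070. Between Foxp3+ and other T cells the differences were -0.40 for Pdcd1 (SE 0.27), 0.33 for Lag3 (SE 0.26) and 0.48 for Tox (SE 0.20), and none was called (edgeR adjusted p = 0.53, 0.61 and 0.24).

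Havcr2 did not share that order. Foxp3+ T cells had 129.6 to 179 CPM (median 140.1), CD8 T cells 72.5 to 208 (median 112), other T cells 18.3 to 107 (median 81.9) and NK cells 8.43 to 74.4 (median 33.8), and the myeloid gate had 83.4 to 115 (median 96.1). The 6 Foxp3+ sums lay above every other T, NK and myeloid sum, and CD8 T cells overlapped with all of the other gates. Foxp3+ and CD8 T cells differed by 0.19 (SE 0.18, edgeR adjusted p = 0.71). Havcr2 was higher in Foxp3+ than in other T cells (0.99, SE 0.24, edgeR adjusted p = 0.022) and higher in CD8 than in other T cells (0.85, SE 0.23, edgeR adjusted p = 0.018). With at most 3 myeloid marker UMIs these differences were 0.82 and 0.82 with edgeR adjusted p of 0.35 and 0.16. DESeq2 gave 0.15 and 0.062. Leaving out E0771-Res1 replicate 1 gave edgeR adjusted p of 0.051 and 0.085, and leaving out E0771-Res2 replicate 1 or 2 gave 0.050 and 0.053 for the first difference.

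Tigit was too sparse for the filter in every gate. It had 29 UMIs in CD8 T cells (0 to 7 per mouse), 30 in Foxp3+ T cells, 15 in other T cells, 9 in NK cells and 5 in the 6909 myeloid cells. At this depth no difference between the lymphocyte gates could be read.

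**Figure D3:**
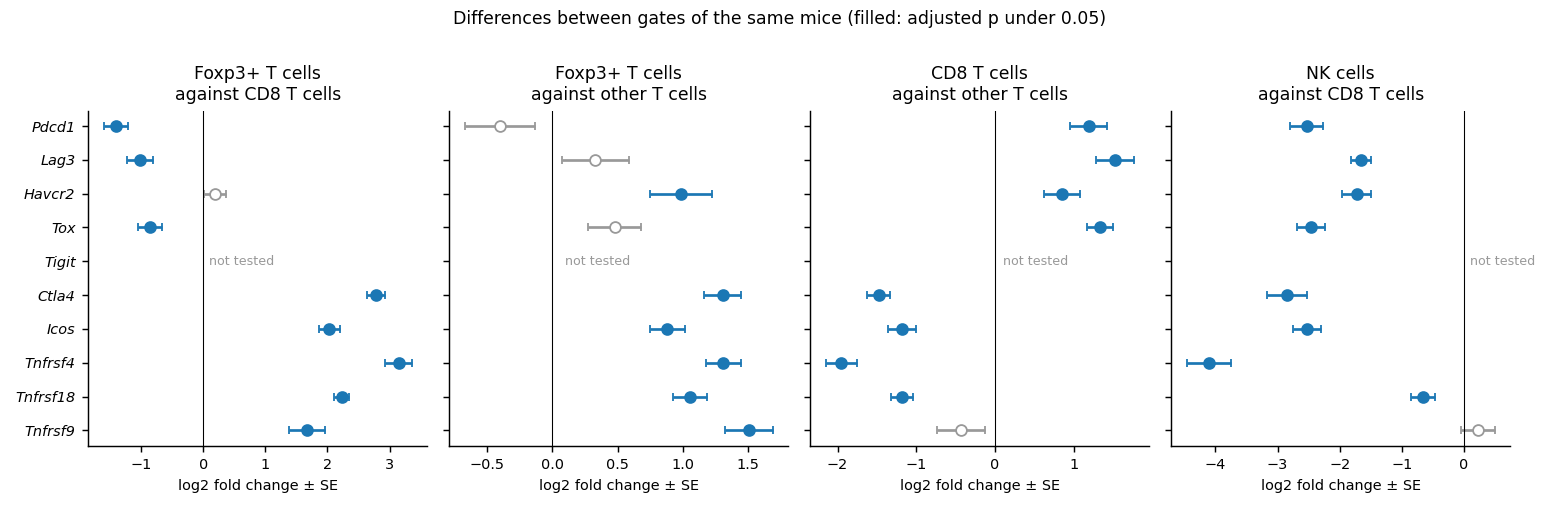
Points are edgeR log2 differences between 2 gates of the same mice with their SE as bars, filled where the adjusted p was under 0.05 and open where it was not. Pdcd1, Lag3 and Tox lie to the left and the lower 5 genes to the right in Foxp3+ against CD8 T cells, from -1.41 for Pdcd1 to 3.15 for Tnfrsf4.

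In NK cells, 8 of the 9 members tested were lower than in CD8 T cells of the same 8 mice and none was higher. Of all 4933 genes 10.0% were called, 6.00% higher and 4.03% lower. The filter on low counts was applied to both gates together. In the comparisons of lines 4 members passed it within NK cells and 9 within CD8 T cells. Members low in NK cells could therefore enter through their CD8 T counts alone, which by itself favors a lower NK level. The count of 8, the differences and their adjusted p are to be read with that limit. Tnfrsf4, Icos and Ctla4 had 17, 32 and 34 UMIs in the 226 NK cells. The log2 difference by edgeR was -4.11 for Tnfrsf4 (SE 0.36, adjusted p = 1.4e-07), -2.85 for Ctla4 (SE 0.32, adjusted p = 4.7e-06), -2.53 for Pdcd1 (SE 0.27, adjusted p = 2.0e-06) and -2.53 for Icos (SE 0.23, adjusted p = 2.0e-07). It was -2.46 for Tox (SE 0.23, adjusted p = 3.6e-07), -1.73 for Havcr2 (SE 0.24, adjusted p = 4.8e-05) and -1.66 for Lag3 (SE 0.16, adjusted p = 8.9e-07), by the same edgeR fit. These 7 were negative in 8 of 8 mice. The Pdcd1 level of NK cells rested on few UMIs, 17 of the 53 being from E0771-Res1 replicate 2.

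Tnfrsf18 and Tnfrsf9 came closest to their CD8 T cell level in NK cells. Tnfrsf18 was 0.66 lower on the log2 scale than in CD8 T cells (difference -0.66, SE 0.19, edgeR adjusted p = 0.036), negative in 6 of 8 mice. That call was lost with DESeq2 (adjusted p = 0.095) and, with edgeR, on leaving out any of 5 single mice. Tnfrsf9 had a difference of 0.22 (SE 0.27, edgeR adjusted p = 0.73), positive in 4 of 8 mice. Only 4 members passed the filter within NK cells in the comparisons of lines, so the others could enter through their CD8 T counts alone. With that limit, the median difference of the 9 members was -2.46, against -0.010 over all genes tested. In Foxp3+ against CD8 T cells it was 1.67 against 0.003, in Foxp3+ against other T cells 0.99 against -0.009, and in CD8 against other T cells -0.43 against -0.023.

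Counted as cells, the 5 genes highest in Foxp3+ T cells were detected in a larger share of that gate than of the others. Deeper cells show more genes, so each cell was thinned to 2000 UMIs and shallower cells were left out, which kept 224 CD8 T, 174 Foxp3+ T, 179 other T, 218 NK and 6363 myeloid cells. Tnfrsf18 was then detected in 89.4% ± 6.3 of Foxp3+ T cells (mean ± SD over mice, n = 6), 58.1% ± 8.9 of other T cells, 44.2% ± 9.5 of CD8 T cells and 29.3% ± 11.2 of NK cells, with 2.92% in the myeloid gate. Tnfrsf4 was in 84.5% ± 7.6 of Foxp3+, 48.6% ± 9.5 of other T, 20.2% ± 8.4 of CD8 and 3.30% ± 4.2 of NK cells, with 3.07% in the myeloid gate. Ctla4 was in 76.5% ± 12.6, 38.4% ± 5.3, 27.3% ± 10.8 and 3.50% ± 3.4 of these gates, in the same order, with 2.04% in the myeloid gate. Icos was in 57.1% ± 7.4, 37.5% ± 7.3, 23.3% ± 7.5 and 4.95% ± 2.9, with 0.69% in the myeloid gate. Tnfrsf9 was in 35.5% ± 8.3, 21.9% ± 8.7, 15.7% ± 9.1 and 13.7% ± 8.9, with 0.67% in the myeloid gate. The NK shares of Tnfrsf4 and Ctla4 exceeded those of the myeloid gate by less than their SD. Without thinning, NK cells had 0.150 Ctla4 UMIs per cell against 0.066 in the myeloid gate. For Tnfrsf4 they had 0.075 against 0.089. Whether these counts are background was not tested.

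At the thinned depth, the members highest in CD8 T cells were detected in a minority of that gate. Tox was in 36.8% ± 11.8 of thinned CD8 T cells (n = 8), Lag3 in 35.5% ± 7.2 and Pdcd1 in 24.7% ± 6.6, with 0.33%, 0.81% and 0.48% in the myeloid gate. Foxp3+ T cells had 27.6% ± 4.8, 18.8% ± 5.9 and 10.7% ± 6.1 of cells positive for the same 3 genes (n = 6). Havcr2 was in 19.5% ± 5.3 of Foxp3+ T, 16.6% ± 4.9 of CD8 T and 17.0% ± 2.4 of myeloid cells. Without thinning the CD8 T cells, at a median of 11081 UMIs, had shares of 69.1% for Tox, 67.4% for Lag3, 58.6% for Pdcd1 and 49.9% for Havcr2. The myeloid gate, at a median of 7174 UMIs, then had 1.03%, 2.61%, 1.54% and 38.2%.

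**Figure D4:**
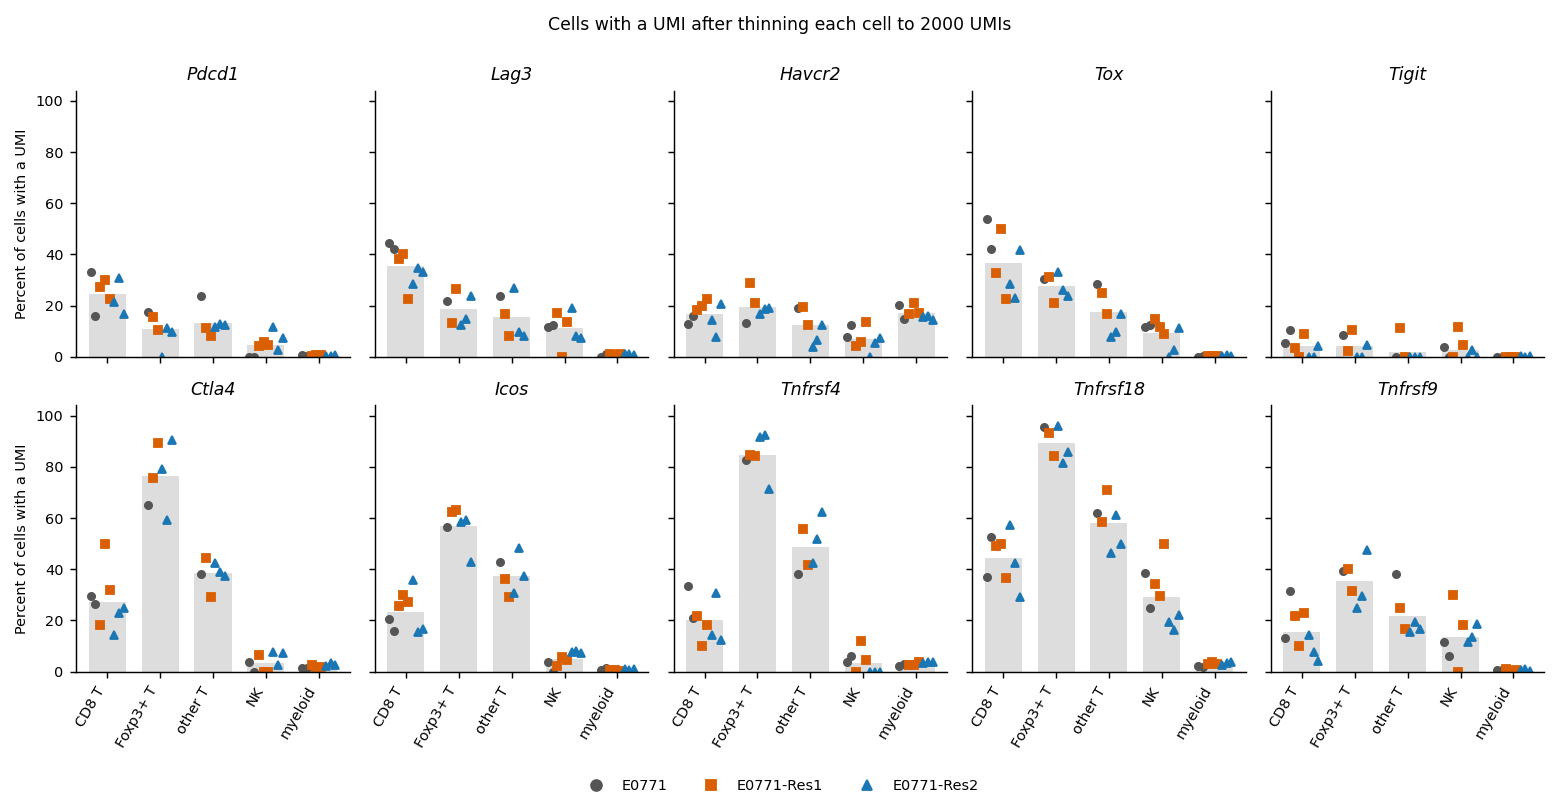
Points give, per mouse, the percent of cells with at least 1 UMI after thinning to 2000 UMIs per cell, and grey bars the mean over mice. Tnfrsf4, Tnfrsf18 and Ctla4 fill most Foxp3+ T cells, with means of 84.5%, 89.4% and 76.5%, and Havcr2 is at 17.0% in the myeloid gate.

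Single Foxp3+ T cells carried several of these genes at once. At the thinned depth 89.1% of them had at least 3 of the 10 members (81.5% to 93.3% by mouse), against 48.0% of other T cells (41.7% to 52.8%), 46.4% of CD8 T cells (33.3% to 70.0%), 6.88% of NK cells and 0.173% of myeloid cells. At least 3 of Ctla4, Icos, Tnfrsf4, Tnfrsf18 and Tnfrsf9 were found in 82.2% of Foxp3+, 40.2% of other T and 14.7% of CD8 T cells. At least 2 of Pdcd1, Lag3, Tox and Havcr2 were found in 35.7% of CD8 T cells, 20.1% of Foxp3+ and 13.4% of other T cells. All 4 of these were found at once in 5 of 224 thinned CD8 T cells (2.23%), and without thinning in 59 of 231 (25.5%).

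For all 7 pairs of members looked at in thinned CD8 T cells, the second gene had a higher share among cells with the first than among cells without it. Lag3 was detected in 49.2% of the 59 Pdcd1+ cells and in 32.7% of the 165 without Pdcd1, Havcr2 in 27.1% and 12.1%, and Tox in 49.2% and 33.9%. Icos was in 33.3% of the 57 Ctla4+ CD8 T cells and in 18.6% of the 167 others. In Foxp3+ T cells the share was higher for 4 of the 7 pairs and lower for 3. Tnfrsf18 was in 94.0% of 149 Tnfrsf4+ Foxp3+ cells and 72.0% of 25 others, Icos in 60.3% of 131 Ctla4+ cells and 53.5% of 43 others, and Lag3 in 15.8% of 19 Pdcd1+ cells and 17.4% of 155 others. Cells share mice and RNA content, so these shares were not tested.

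The levels sorted the genes into sets that varied alike. Over the 29 sums of 4 gates (log2 CPM), which share mice and differ mostly by gate, Ctla4 went with Icos (Pearson r = 0.955), Cd5 (0.955) and Tnfrsf4 (0.940), out of 4345 genes compared. Tnfrsf4 was closest to Ltb (0.964), Bmyc (0.948) and Ctla4, and Tnfrsf18 to Tnfrsf4 (0.924), Sdf4 (0.917) and Cd2 (0.915). Icos was closest to Ctla4, Cd5 (0.942) and Tnfrsf4 (0.940). Tnfrsf9 had looser company in Cmtm7 (0.751), Map1lc3b (0.716) and Il2ra (0.679). Pdcd1 was closest to Themis (0.791), Fam3c (0.754) and Gdi2 (0.745), Lag3 to Mphosph6 (0.787), Uchl3 (0.781) and Smarca5 (0.778), Tox to Cdk6 (0.806), Inpp4b (0.780) and Sh3kbp1 (0.760), and Havcr2 to Crbn (0.789), Sdcbp2 (0.764) and Chchd10 (0.729). Pdcd1 had an r of 0.738 with Tox and 0.683 with Lag3, whereas Ctla4 and Lag3 had 0.029.

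Other genes of the same pathways were split between the gates as well. In Foxp3+ against CD8 T cells 6.60% of the 4788 genes tested were called higher and 5.74% lower. Of 18 further costimulatory and inhibitory receptors 13 were tested in this comparison, with 4 higher and 4 lower. Among them Cd160, an inhibitory receptor of cytotoxic cells, differed by -6.32 (SE 0.39), Cd96 by -2.26 (SE 0.36), Cd226, the activating partner of TIGIT, by -2.10 (SE 0.25), and Cd5 by 1.74 (SE 0.15). Of 14 transcription factors of activation and exhaustion 11 were tested, with 3 higher and 3 lower. Nr4a2, induced by T cell receptor signals, differed by -2.36 (SE 0.17), Ikzf2 by 1.88 (SE 0.13), Prdm1 by 1.66 (SE 0.26) and Batf by 1.02 (SE 0.20). In NK against CD8 T cells 6.00% of the 4933 genes tested were called higher and 4.03% lower. Of 11 further receptors tested there, 2 were higher and 6 lower, with Cd5 at -5.34 (SE 0.41) and Cd244a at 1.45 (SE 0.21). Of 11 factors 2 were higher and 5 lower, with Eomes, an NK and memory factor, at 3.53 (SE 0.25). In each comparison a gene could pass the filter on low counts through one gate alone, which by itself favors a difference. Cd5, for example, had a median of 0 CPM in NK cells.

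The other T cells differed from both other T gates in further ways. Of all genes tested, 8.26% were called higher and 7.97% lower in CD8 than in other T cells. For Foxp3+ against other T cells these shares were 2.30% and 2.08%. All 6 cell cycle genes tested were higher in CD8 than in other T cells, with Stmn1 at 2.56 (SE 0.27) and Birc5 at 2.20 (SE 0.30), and 5 of 6 were higher in Foxp3+ than in other T cells, with Birc5 at 2.14 (SE 0.34). Of 4 naive and memory genes tested, Klf2 and Tcf7 were lower in CD8 T cells (-1.19, SE 0.16, and -1.03, SE 0.25) and in Foxp3+ T cells (-1.28, SE 0.17, and -2.46, SE 0.38). Of 8 genes of dissociation stress 5 were lower in each comparison, with Fos at -0.82 (SE 0.13) and -0.93 (SE 0.16). Other T cells were also the shallowest gate, with a median of 5858 UMIs against 7540 in Foxp3+ and 11081 in CD8 T cells. The part of these differences in the receptor levels was not tested.

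In the mice at hand, the make-up of the T cell compartment differed between the tumor lines, and the shares of T cells were not tested. CD8 T cells were 50% and 52.8% of the T cells in E0771, 38.5%, 33.3% and 29.9% in E0771-Res1, and 18.9%, 28% and 32.0% in the E0771-Res2 mice. Foxp3+ T cells were 22.7% and 16.7% of T cells in E0771, 31.1%, 27.3% and 26.0% in E0771-Res1, and 33.8%, 31.0% and 30.7% in the E0771-Res2 mice. The E0771 mice overlapped with the resistant ones in neither share. As a share of all kept cells, CD8 T cells were 1.82% ± 0.76 in the 6 resistant mice (SD) and 4.02% ± 1.25 in the 2 E0771 mice, a difference of -2.20 percentage points (two-sided exact permutation test, p = 0.0357, the smallest that 28 splits allow, adjusted p = 0.179 over 5 shares). Foxp3+ T cells were 1.75% ± 0.46 and 1.61% ± 0.87, a difference of 0.137 points (exact permutation p = 0.643, adjusted p = 0.929).

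Whether lines overlapped is given below as a description, since lines of so few mice can lie apart by chance. The share of all genes without overlap is not given. Over all kept CD45+ cells, Tox was the only member called between lines. It stood at 30.5 and 20.6 CPM in E0771, 17.9, 15.4 and 13.7 in E0771-Res1, and 11.2, 17.0 and 16.2 in the E0771-Res2 mice, so that both E0771 mice lay above all resistant mice. E0771-Res2 was lower than E0771 by edgeR (log2 difference -0.84, SE 0.20, adjusted p = 0.037), and of 10 members 1 was called where 4.37% of 11326 genes were. The call was lost without E0771 replicate 1 (-0.50, adjusted p = 0.42), E0771 replicate 3 (-1.06, adjusted p = 0.075), E0771-Res2 replicate 1 (-0.67, adjusted p = 0.10) or E0771-Res2 replicate 3 (-0.92, adjusted p = 0.093), and without the cells of the highest 5% of doublet scores (-0.80, adjusted p = 0.052), all by edgeR. In these sums fewer T cells and less Tox RNA per T cell cannot be told apart, and the CD8 share of kept cells was 4.90% and 3.14% in E0771 and 0.760% to 2.82% in the resistant mice.

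Pdcd1 was also lower in both resistant lines and was not called. It stood at 21.6 and 14.8 CPM in E0771, 13.5, 14.2 and 14.2 in E0771-Res1, and 11.3, 14.3 and 10.2 in the E0771-Res2 mice, without overlap between E0771 and either resistant line. The log2 difference was -0.66 for E0771-Res2 (SE 0.18, edgeR adjusted p = 0.060) and -0.44 for E0771-Res1 (SE 0.18, edgeR adjusted p = 0.42). Without E0771-Res1 replicate 1 Pdcd1 was called in E0771-Res2 (-0.67, edgeR adjusted p = 0.050), as was Havcr2 (-0.28, edgeR adjusted p = 0.038), and without E0771-Res2 replicate 2 Pdcd1 was called at -0.81 (edgeR adjusted p = 0.029). Lag3 had 24.7 and 19.9 CPM in E0771, 15.9 to 20.1 in E0771-Res1 and 16.2 to 18.6 in the E0771-Res2 mice, and Havcr2 had 103 and 104, 85.5 to 101 and 82.7 to 87.8. Ctla4 had 63.1 and 41.7 CPM in E0771, 57.6, 60.1 and 87.8 in E0771-Res1, and 46.8, 57.8 and 49.2 in the E0771-Res2 mice, so its groups overlapped.

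In the other 3 comparisons of all CD45+ cells no member was called by edgeR. For E0771-Res1 against E0771, 0 of 10 were called, where 0.0353% of all genes were, and 2 of 10 had an unadjusted p under 0.05, as had 1189 of 11326 genes. For E0771-Res2 against E0771-Res1 0 of 10 were called, where 4.20% of genes were, and 1 had an unadjusted p under 0.05, as had 2244 genes. For both resistant lines against E0771 0 of 10 were called, where 0.901% of genes were, and 4 had an unadjusted p under 0.05, as had 1648 genes. In this comparison Tox stood at -0.78 (SE 0.18, edgeR adjusted p = 0.066). DESeq2 called 0, 0 and 1 member, the last being Tox.

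**Figure D5:**
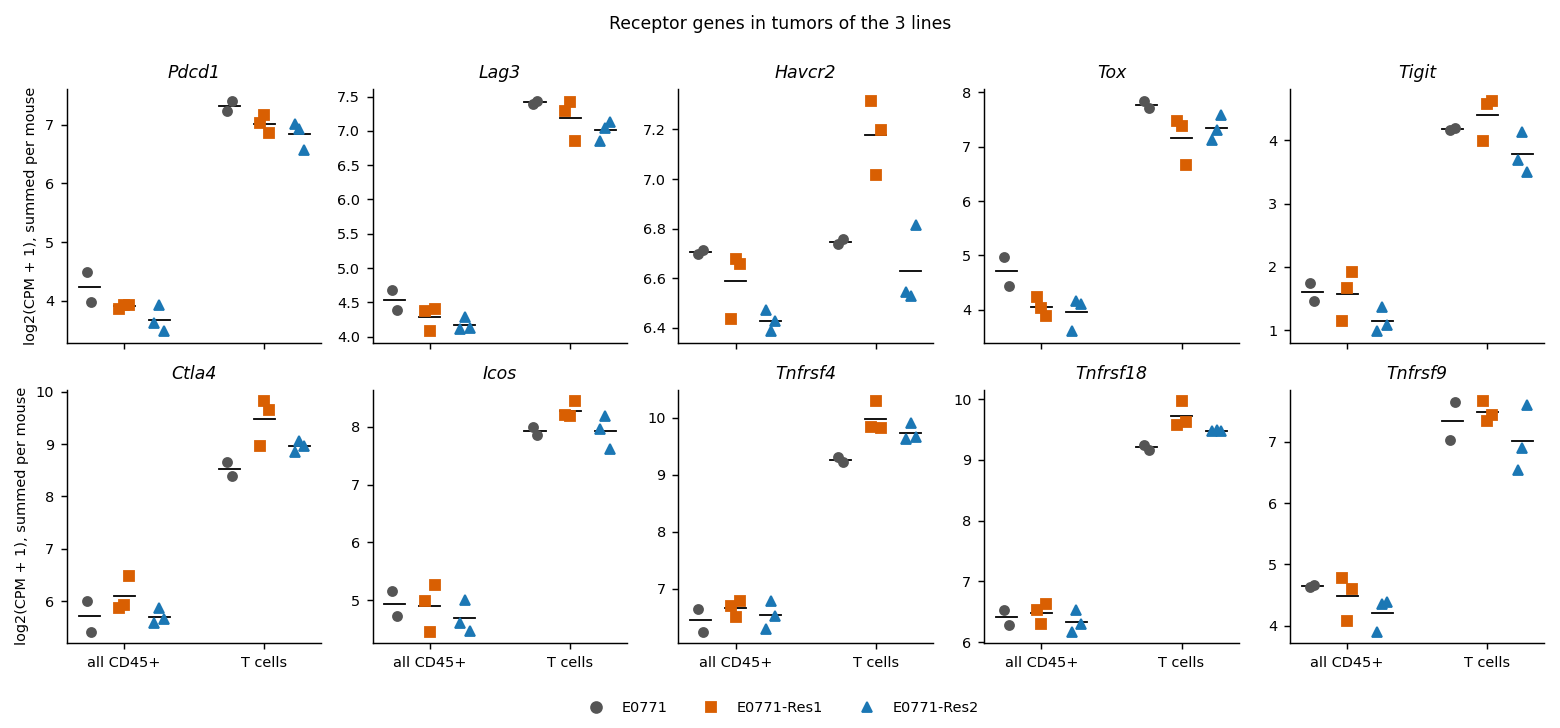
Points are mice, with log2 of CPM + 1 on the vertical axis (ranges differ between panels and do not start at 0), for all CD45+ cells on the left and for T cells on the right of each panel, and bars are group means. Both E0771 mice lie above the resistant mice for Tox and Pdcd1 in either set of cells, and below them for Ctla4, Tnfrsf4 and Tnfrsf18 in T cells. With so few mice such separation can arise by chance, and the share of all genes that show it is not given.

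In the sum of all T gates no member was called, and 7 members had a positive and 3 a negative difference in E0771-Res1 against E0771, and 3 a positive and 7 a negative one in E0771-Res2. Ctla4 had 403 and 335 CPM in E0771, 497, 903 and 806 in E0771-Res1, and 459, 531 and 501 in the E0771-Res2. Tnfrsf4 had 634 and 598 CPM in E0771, 918, 1255 and 901 in E0771-Res1, and 789, 965 and 815 in the E0771-Res2. Both E0771 mice lay below every resistant mouse for either gene. Tox had 229 and 207 CPM in E0771, 176, 165 and 100.3 in E0771-Res1, and 138, 158 and 191 in the E0771-Res2 mice, with both E0771 mice on top.

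By edgeR the differences of E0771-Res1 from E0771 in T cells were 0.93 for Ctla4 (SE 0.20, adjusted p = 0.16), 0.70 for Tnfrsf4 (SE 0.16, adjusted p = 0.18) and -0.60 for Tox (SE 0.21, adjusted p = 0.67). Those of E0771-Res2 were 0.41 (SE 0.20, adjusted p = 0.54), 0.47 (SE 0.16, adjusted p = 0.24) and -0.44 (SE 0.21, adjusted p = 0.52) for the same genes by edgeR. Both lines are set against the same 2 E0771 mice. Of 10 members 0 were called for E0771-Res1, E0771-Res2, E0771-Res2 against E0771-Res1 and both resistant lines, where 0.0654%, 0.641%, 0.353% and 0.118% of the 7648 genes tested were. By edgeR 5, 4, 3 and 5 of 10 members had an unadjusted p under 0.05, as had 448, 719, 670 and 577 of the 7648 genes, and DESeq2 called 2 (Ctla4 and Tnfrsf4), 0, 0 and 0. Without E0771-Res1 replicate 1 Ctla4 was called, at 1.18 for E0771-Res1 (edgeR adjusted p = 0.0046), -0.77 for E0771-Res2 against E0771-Res1 (edgeR adjusted p = 0.012) and 0.79 for both resistant lines (edgeR adjusted p = 0.033). With cells thinned to 2000 UMIs Tox was called, at -1.11 for E0771-Res2 (edgeR adjusted p = 0.029) and -0.97 for both resistant lines (edgeR adjusted p = 0.043). These sums mix the T gates, whose shares differed between the mice of the lines as given above, without a test. Macrophage genes summed to 4109 to 5523 CPM in E0771, 3959 to 6650 in E0771-Res1 and 5142 to 8248 in the E0771-Res2. The part of the shares and of this macrophage RNA in the differences was not tested.

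Within CD8 T cells, whose share of kept cells differed most but was not called, most members overlapped between the lines. The exceptions were Tigit, with 0, 3 and 2 UMIs in E0771-Res2 against 7 and 3 in E0771 and 7, 1 and 6 in E0771-Res1, whose CPM in E0771-Res2 did not overlap with either other line, and Tnfrsf9. Tnfrsf9 had 75.3 and 81.8 CPM in E0771, 203, 101 and 101 in E0771-Res1, and 64.3, 45.8 and 50.6 in the E0771-Res2 mice, so that no 2 lines overlapped. Its difference was 0.95 for E0771-Res1 against E0771 (SE 0.34, edgeR adjusted p = 1.0), -0.54 for E0771-Res2 against E0771 (SE 0.38, edgeR adjusted p = 1.0) and -1.49 for E0771-Res2 against E0771-Res1 (SE 0.34, edgeR adjusted p = 0.18). The 2 lower sums of E0771-Res1 rest on 7 and 19 UMIs, and the 3 of E0771-Res2 on 8, 11 and 12. Lines of so few mice can lie apart by chance, and the share of all genes without overlap is not given here.

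Pdcd1 in CD8 T cells differed by 0.00 in E0771-Res1 (SE 0.35) and -0.16 in E0771-Res2 (SE 0.29) from E0771, Lag3 by 0.21 (SE 0.25) and -0.14 (SE 0.25), and Tox by -0.45 (SE 0.27) and -0.20 (SE 0.26), all on the log2 scale. Across the 4 comparisons of lines 0.00% of the 4786 genes tested in CD8 T cells were called, and 0 of 9 members. By edgeR 1 member and 176 genes had an unadjusted p under 0.05 for E0771-Res1 against E0771, 0 and 174 for E0771-Res2 against E0771, 3 and 346 for E0771-Res2 against E0771-Res1, and 0 and 145 for both resistant lines, and DESeq2 called 0 members in each. Standard errors were 0.22 to 0.45 in 11 to 57 cells per mouse, and a difference as large as the -1.49 of Tnfrsf9 was not called.

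For Foxp3+ T cells only 1 E0771 mouse had 10 cells, so E0771-Res2 (3 mice) was set against E0771-Res1 (2 mice). No member was called by edgeR, where 0.0507% of 3945 genes were, and 1 of 9 had an unadjusted p under 0.05, as had 270 genes. That was Icos, with 519.7 and 620.2 CPM in E0771-Res1 and 322, 475 and 361 in the E0771-Res2 mice, which did not overlap (log2 difference -0.51, SE 0.21, edgeR adjusted p = 0.62). With at least 5 cells per mouse, a limit chosen after seeing the data, all 8 mice entered, and against E0771 0 of 9 members were called by edgeR in either line or in both, where 2, 13 and 10 of 4188 genes were.

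In other T cells 0.00% of 3918 genes and 0 of 9 members were called in the 4 comparisons of lines by edgeR, with 0, 0, 0 and 1 member at an unadjusted p under 0.05 and 160, 204, 158 and 199 genes. The 1 was Tnfrsf9 for both resistant lines against E0771 (log2 difference -1.05, SE 0.49, edgeR adjusted p = 0.97), which turned to 0.12 without E0771 replicate 3, a mouse with 20 of its UMIs in 10 cells. In NK cells 4 members passed the filter, and by edgeR 0 of them and 0.00% of 4156 genes were called, with 1 member, Tox, at an unadjusted p under 0.05 in E0771-Res2 against either other line, as were 234 and 205 genes. Tox in NK cells had 51.8 and 39.6 CPM in E0771, 61.1, 50.6 and 60.9 in E0771-Res1, and 27.7, 19.6 and 17.0 in the E0771-Res2 mice, where E0771-Res2 lay below both other lines. The difference from E0771-Res1 was -1.43 (SE 0.43, edgeR adjusted p = 0.86), on 3 to 24 UMIs per mouse. DESeq2 called 0 members in any of these comparisons.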

How the data were processed

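Sorted CD45+ cells were labeled with oligo tags, pooled and profiled with 10x 3' chemistry. The deposited matrices hold UMI counts per gene and cell, which the authors made with Cell Ranger 6.1.2 on mm10, 1 matrix per mouse. Cells with 500 to 6000 genes and under 10% mitochondrial counts were kept, then mitochondrial, ribosomal and Gm genes and 9 tag rows were left out, leaving 23649 genes. Scrublet called 55 cells (0.519%), which were kept. Counts were summed per mouse and gate. CPM values were scaled by TMM among the mice of 1 gate and not between gates, whereas the fits of 2 gates scaled both together. Sums were tested with edgeR 4.0.16 (quasi-likelihood, TMM, filterByExpr, two-sided, Benjamini-Hochberg adjustment, threshold 0.05). Comparisons of gates had mouse as a block, and comparisons of lines fitted all 3 lines together. Gate shares were compared by exact permutation. DESeq2 1.42.0 was an alternative. The SE printed were derived from the edgeR fits over mice, as the absolute log2 difference divided by the square root of the quasi-likelihood F statistic. Where the difference is near 0, such an SE is a ratio of small numbers and is only approximate. The SD are over mice, so neither SE nor SD is counting error only. The members, lists and gates were chosen with earlier results of these data known. Genes named beside the members came from lists on other receptors, transcription factors, naive and memory genes, ligands, dissociation stress and cell cycle, at most 4 called genes per list and comparison, and as the 3 genes of highest Pearson r. The 45 cells with both Ncr1 and Cd3 entered no gate, and the 35 T cells with both Foxp3 and Cd8 entered only the T cell total. The edgeR fits were tested on simulated data.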

Additional observations from a re-analysis of the deposited data

Results flagged for a closer look

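Tnfrsf9 moved in opposite directions between gates in E0771 and E0771-Res1 tumors. The difference of CD8 T cells from other T cells, in log2 CPM, was -2.32 to -0.21 in 2 E0771 mice and 0.23 to 0.78 in the 2 of 3 E0771-Res1 mice with at least 10 other T cells, so the lines differed by -1.77 on average. The difference of NK cells from CD8 T cells was 0.23 to 1.01 in 2 E0771 mice and -1.28 to -0.63 in 3 E0771-Res1 mice, so the lines differed by 1.57. The mice with a value went one way in one line and the opposite way in the other, and the difference between the lines was not tested. Both values share the CD8 T cell sums, which held 36 and 15 Tnfrsf9 UMIs in E0771 and 97, 7 and 19 in E0771-Res1. With the E0771-Res2 mice included, the first difference was positive in 3 and negative in 4 of 7 mice. The second was positive in 4 and negative in 4 of 8 mice. The other T cell sum of E0771 replicate 3 rests on 10 cells. Without that mouse, the Tnfrsf9 difference of both resistant lines from E0771 in other T cells turned from -1.05 to 0.12. The pattern was flagged by a rule, and the number of differences searched is not given.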

How the results depend on the processing

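The 4 gates held 844 of 10605 cells, which limits the comparisons of lines within a gate. With a mouse left out, members called between gates were 8, 5 to 6, 7 to 8 and 7 to 8 for Foxp3+ against CD8, Foxp3+ against other, CD8 against other T and NK against CD8 T cells. Nearly all comparisons of lines had 0 members called, and a count that stays at 0 says nothing about stability. In all CD45+ cells, members called without a filter on low counts were 1 for E0771-Res1, 2 for E0771-Res2, 1 for E0771-Res2 against E0771-Res1 and 2 for both resistant lines. Both resistant lines had 1 with DESeq2 and 1 with thinned cells, and E0771-Res2 had 0 without the highest doublet scores and 0 to 3 with a mouse left out. In T cells, DESeq2 gave 2 members for E0771-Res1, no filter gave 2, 1 and 2 for E0771-Res1, E0771-Res2 against E0771-Res1 and both lines, thinning gave 1 for E0771-Res2 and 1 for both lines, and leaving out a mouse gave 0 to 1. In CD8 T cells no filter gave 1 member for E0771-Res2 against E0771-Res1.

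Among single members, the difference of E0771-Res2 from E0771-Res1 turned in T cells for Ctla4, to 0.10 without any myeloid marker UMI and 0.38 with at most 3, and for Icos, to 0.23 with at most 3, and in CD8 T cells for Ctla4, to 0.00058 with thinned cells. Tnfrsf9 in other T cells ranged from -2.01 to 0.12 with a mouse left out. The cause was not tested. Gate shares of resistant against E0771 mice turned for other T cells, to -0.0563 points with all deposited cells, -0.0553 with at most 3 myeloid marker UMIs and -0.0565 without the highest doublet scores, and for Foxp3+ T cells, to -0.160 with at most 3. With a mouse left out gate shares ranged from -0.48 to 0.75 points for Foxp3+ T, -0.21 to 0.28 for other T, -3.89 to -0.04 for all T, -3.08 to -1.32 for CD8 T and -0.44 to -0.12 for NK cells.

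Counts of all genes called, beside those of the members, moved more, and the lines are given in the order E0771-Res1, E0771-Res2, E0771-Res2 against E0771-Res1 and both resistant lines. In CD45+ cells 4, 495, 476 and 102 genes became 244, 978, 928 and 503 without a filter, and the first and last became 69 and 253 with DESeq2. In T cells 5, 49, 27 and 9 became 71, 188, 152 and 113 without a filter, and the last became 19 with DESeq2 and 27 with thinned cells. With at most 3 myeloid marker UMIs the first 3 became 1, 8 and 3, and the third became 1 without any such UMI and 53 without the highest doublet scores. Thinning gave 11 and leaving out those scores gave 2 for the first. From 0 each, no filter gave 26, 24, 88 and 24 genes in CD8 T cells, 19, 16, 19 and 18 in other T cells and 24, 31, 43 and 18 in NK cells, and DESeq2 gave 0 to 7. The 2 genes in Foxp3+ T cells became 36 without a filter and 0 to 5 under the other settings without a block that moved them. Between the gates, 591, 196 and 776 genes for Foxp3+ against CD8, Foxp3+ against other and CD8 against other T cells became 304, 90 and 389 with DESeq2 and 237, 86 and 220 with thinned cells, where NK against CD8 T cells went from 495 to 212. At most 3 myeloid marker UMIs gave 87 for the second and 353 for the third, and the second became 377 without a filter and 379 with a Cd3 sum of at least 1. The fit without any myeloid marker UMI could not be made for the 4 single gates and their 4 comparisons.

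The main fits did not use the replicate numbers. Deviations of mice with the same number had correlations of -0.058 to 0.129 over 9652 genes, without pairs of unlike number set beside them. Whether mice with the same number share more than that number was not tested. With the replicate block 2 members (Tox and Pdcd1) were called for E0771-Res2 in CD45+ cells and the count of members was otherwise that reported. All genes called became 41 for E0771-Res1 and 203 for both lines in CD45+ cells, 19, 152, 96 and 63 in T cells, 18 in Foxp3+ T cells and 0 to 21 in CD8 T, other T and NK cells.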

Other observations

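Ligands of the receptors were measured in the same cells. Of 12 ligands 11 were tested over all CD45+ cells, and 2 were lower in E0771-Res2 than in E0771, Cd80 (log2 difference -0.77, SE 0.11, edgeR adjusted p = 0.0033) and Cd86 (-0.44, SE 0.09, edgeR adjusted p = 0.023), which bind CTLA-4 and CD28. In E0771-Res2 against E0771, 4.37% of the 11326 genes tested were called over all CD45+ cells, and 0.641% of 7648 over T cells. Among transcription factors of activation, Nr4a2 was lower in E0771-Res2 over all CD45+ cells (-1.34, SE 0.17, edgeR adjusted p = 0.0018) and over T cells (-0.91, SE 0.19, edgeR adjusted p = 0.036). Over all CD45+ cells Nr4a3 was also lower (-0.91, SE 0.20, edgeR adjusted p = 0.026) and Id2 higher (0.47, SE 0.10, edgeR adjusted p = 0.026). Over T cells Cd69, from the list of other receptors, was higher (0.80, SE 0.16, edgeR adjusted p = 0.028). Jun was higher there too (1.26, SE 0.19, edgeR adjusted p = 0.0068). Of 8 genes of dissociation stress 3 were higher in E0771-Res2 over all CD45+ cells, with Hspa1b at 1.39 and Jun at 0.88, and their part in these differences was not tested.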
